A study of Mus musculus with 63 samples.

Results

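Sorted pancreatic β cells of diabetic NOD-ICR mice (T1D, n = 4 libraries) were compared with those of non-diabetic NOD-ICR mice (T1ND, n = 7). These 11 libraries, chosen by the disease state in their labels, are part of a series of 63 RNA sequencing libraries of mouse β cells. All 11 mice were adults of genotype Cherry/+; Ins2-Cre/+, so that cells with activity of the *Ins2*-driven Cre carry the mCherry reporter by which they were sorted, in both groups alike. T1ND mice were 82 to 212 days old with a blood glucose of 108 to 245 mg/dl (5 females, 2 males). T1D mice were 98 to 150 days old (3 females, 1 male), 3 of them with a blood glucose of 311 to 358 mg/dl and 1, T1D 1, above 600 mg/dl. RNA of all 7 T1ND libraries and of 3 T1D libraries was taken with a Qiagen column, and that of T1D 1 with TRIzol. Values of 21 libraries of ICR adults (strain ICR, the same reporter genotype, 84 to 364 days old, 103 to 190 mg/dl) are given as a background. A second pair of groups serves to compare effects, namely diabetic mice with Ob/Ob of strain BTBR/mix (T2D, n = 7, 58 to 78 days, 408 to above 600 mg/dl) and Ob/+ mice of strain BTBR (T2H, n = 9, 53 to 179 days, 103 to 271 mg/dl). They carried the same reporter, and 2 libraries of each group came from mice with a second copy of Ins2-Cre. Nothing in the labels says whether littermates were used, and replicate numbers only name libraries.

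NOD mice lose β cells to an autoimmune attack in which T cells and macrophages enter the islets, and the β cells that can be sorted from a diabetic animal are those that are left. A mature β cell takes up glucose, burns it in mitochondria, and releases insulin when the resulting ATP closes potassium channels and calcium flows in. Gut hormones such as GIP and GLP-1 raise this release through their receptors. High glucose drives the transcription factor ChREBP (*Mlxipl*), which acts on E-box pairs in promoters of genes such as *Txnip*. A gene is said below to have risen, fallen or been called where its adjusted p lay below 0.05 (two-sided quasi-likelihood test of edgeR, adjusted by Benjamini and Hochberg's method over 16092 genes). Folds are log2 values of T1D minus T1ND with their standard error, and CPM are expected counts scaled to a common library size (TMM).

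The 11 libraries held 31875536 to 43215228 expected counts. *Ins1* and *Ins2* made up 23.7 to 42.5% of the counts in T1ND and 14.2 to 34% in T1D, and *Iapp*, *Pdx1* and *Nkx6-1* were found in every library. RNA of other cells was present as well. The 26 acinar markers (digestive enzymes and their regulators) held 3.11 to 26.2% in T1ND (median 18.1%) and 12.8 to 41.8% in T1D (median 23.3%). The 20 macrophage and monocyte markers held 0.0148 to 0.243% (median 0.179%) and 0.0831 to 0.586% (median 0.334%), and the T cell and the B and plasma cell markers held at most 0.00273% and 0.00468% in any of the 11 libraries. In bulk RNA, fewer cells of a type and less RNA per cell cannot be told apart.

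**Figure D1:**
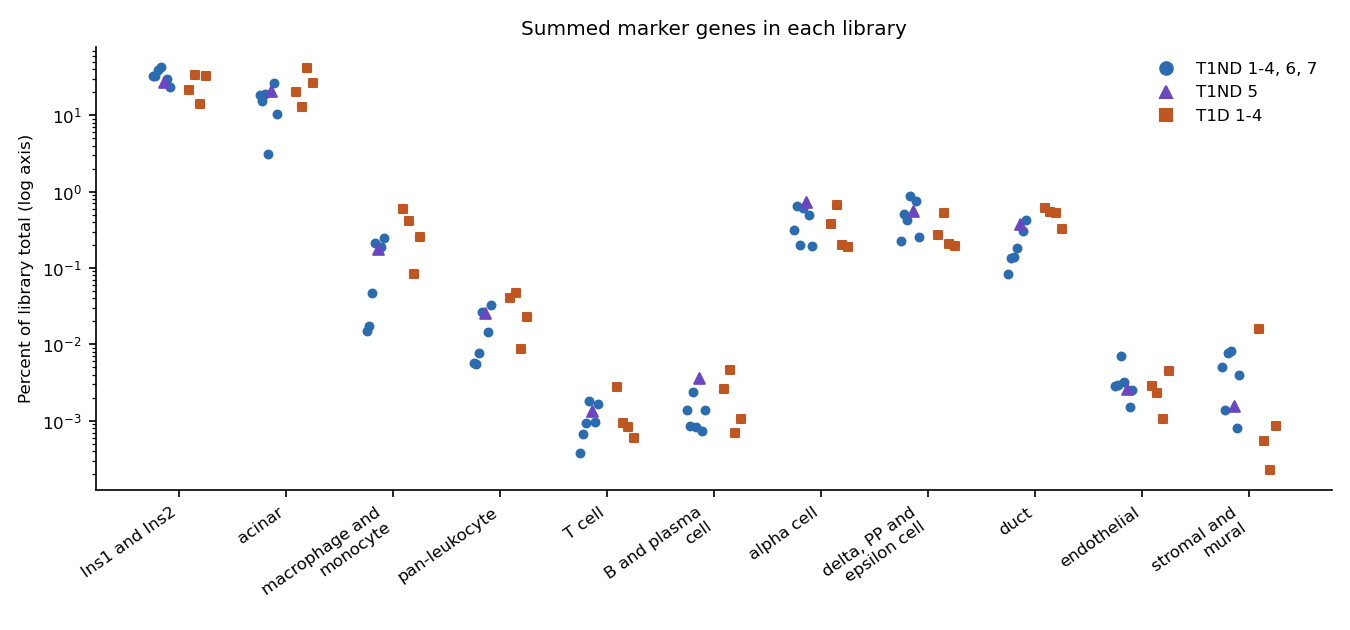
Percent of each library's counts in marker lists of 11 kinds (log axis), with 1 point per library of T1ND (circles, T1ND 5 as a triangle) and T1D (squares). Acinar and macrophage shares reach higher in T1D but overlap between the groups, and T cell and B cell lists are near the floor.

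The groups overlapped, as 2 libraries labelled non-diabetic, T1ND 5 and T1ND 6, stood nearer to the diabetic ones for most called genes. T1ND 5 came from the oldest T1ND mouse, a male of 212 days with a blood glucose of 245 mg/dl, and these features cannot be told apart. Its log2 CPM correlated at 0.961 on average with the 4 T1D libraries and at 0.91 with the other T1ND libraries. A place was computed for each library on a line from the T1ND mean (0) to the T1D mean (1), over the genes called with that library left out. T1ND 5 had a median place of 0.89 and stood nearer to T1D for 608 of 684 genes (88.9%). T1ND 6 (143 mg/dl) had a place of 0.65 and stood nearer to T1D for 303 of 484 genes (62.6%), while the diabetic T1D 1 had one of 0.45 and stood nearer to T1D for 28 of 71 genes (39.4%). T1D 1 was also the only TRIzol library of the 2 groups, and places rest on CPM not adjusted for extraction. For T1D 1 the place cannot be told apart from an effect of extraction. The other 5 T1ND libraries had places of -0.52 to 0.07, and the T1D libraries of 0.45 to 0.82. T1ND 1 stood apart in another way: its interferon-related genes were far below those of the other 6, with *Cxcl10* at 0.686 CPM against 130 to 438 CPM.

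**Figure D2:**
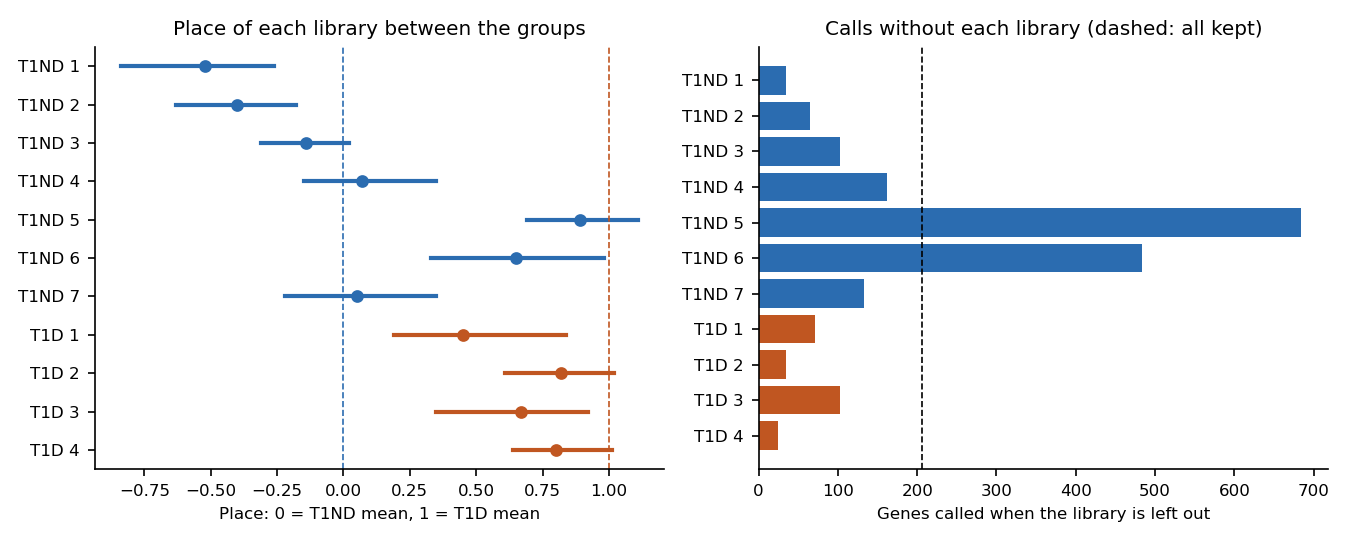
Left, median place of each library (points, with bars from the lower to the upper quartile over genes) on a line from the mean of the T1ND libraries (0) to that of the T1D libraries (1), computed without that library. Right, number of genes called in the fit of the whole series with that library left out. The dashed line marks the 206 genes called with all 63 libraries, and leaving out T1ND 5 gives 684.

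With all 11 libraries, 206 of 16092 genes were called (1.28%). Of these, 78 rose (0.485% of genes tested) and 128 fell (0.795%), and 107 differed by at least 2-fold, 17 higher and 90 lower. The median fold of all genes tested was -0.014. The groups did not overlap for 39 of the called genes (7 higher, 32 lower), while they did not overlap for 233 of all genes tested (1.45%, with 0.553% higher and 0.895% lower in T1D). Folds were above 0 for 49% of genes tested. With RLE instead of TMM factors the calls were 111 higher and 118 lower, or 48.5% higher against 37.9%. The count depended on which libraries were in the fit. A fit of the 11 libraries alone called 0 genes (smallest adjusted p 0.114, edgeR, with 1784 genes at an unadjusted p below 0.05, and 0 called with limma-voom), although the called genes tested there all kept their direction. The fit of Qiagen libraries alone, which leaves 3 T1D libraries, also called 0 (smallest adjusted p 0.0766, edgeR, 2428 genes at an unadjusted p below 0.05). Without T1ND 5 the count was 684, without T1ND 6 it was 484, without T1ND 1 it was 34, and without T1D 4 it was 24. Gene and list results without T1ND 5 are given below as a description only. That library was picked because its values lay near the diabetic ones, so leaving it out tends to widen the difference between the groups.

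A slope on transcript length and the share of macrophage markers differed between the groups, with overlap. Called rises had a median transcript length of 867 bases and called falls of 1880 bases, against 1525 bases for all genes tested. The slope of a library's log2 CPM on log2 transcript length ran from -0.125 to 0.119 in T1ND (T1ND 5 at -0.085 and T1ND 6 at -0.125) and from -0.157 to -0.033 in T1D. With this slope as a further term 5 genes were called (*Frzb*, *Ucn3*, *Col4a1*, *Emid1* and *Slc30a4*), and with the macrophage share as a term 14, while the pan-leukocyte share as a term gave 200 and the acinar share 237. Of the 206 genes 156 were among the 200 with the pan-leukocyte term. The length and macrophage terms were added after the data were seen, and both were computed from the same counts. What lies behind them was not tested. Each of the 206 genes kept its direction under each of the terms named here.

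*Ucn3*, the peptide hormone urocortin 3 that marks mature β cells (chr13:3940688-3945349, GRCm38), was among the 10 largest falls. Its CPM in T1ND were 96.8 at the lowest, 577.2 at the median and 844 at the highest, and in T1D 1 to 4 they were 33.9, 123, 60.8 and 150. T1ND 5 was the lowest T1ND library and lay within the T1D range, and the next lowest, T1ND 7 at 223 CPM, lay above all 4 T1D libraries. The fold was -2.43 ± 0.40 (adjusted p = 0.000803), and it stayed called with the length or the macrophage term (adjusted p = 0.00145 and 0.00878). In the edgeR fit of the 11 NOD-ICR libraries alone the fold was -2.45 and not called (adjusted p = 0.199). ICR adults ranged from 471 to 1080 CPM. Every T1D library lay below all 21 of them, and so did T1ND 5, T1ND 7 and T1ND 6 (365 CPM).

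*Frzb*, a secreted inhibitor of Wnt signalling (chr2:80411970-80447396), had the smallest p of all genes. T1ND libraries ranged from 21.1 CPM (T1ND 5) through a median of 115 to 191 CPM, and the T1D libraries had 18.4, 21.6, 23.7 and 16.7 CPM. The 4 diabetic values were close to each other, and T1ND 5 was again the only T1ND library among them. The fold was -2.49 ± 0.37 (adjusted p = 9.48e-05) and -2.67 without T1ND 5. In the edgeR fit of the 11 NOD-ICR libraries alone it was -2.47 and not called (adjusted p = 0.189). Among 32 alternative settings, *Frzb* and *Ucn3* were each called in 26.

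A few maturity markers and β cell transcription factors were called, all of them lower in T1D. Of 16 maturity markers 2 fell (*Ucn3* and *Trpm5*) and 0 rose, with a median fold of -0.63 against -0.014 over all genes. Of 20 transcription factors 2 fell and 0 rose (median -0.38, 17 below 0). Among all genes tested the share that fell was 0.795%. *Mnx1*, a homeobox factor that keeps β cells from taking on other islet fates, fell by 1.43 ± 0.34 (adjusted p = 0.020). It ranged from 6.83 (T1ND 5) to 30.6 CPM in T1ND, with a median of 17.7, and stood at 6.44, 5.10, 10.4 and 7.11 CPM in T1D. T1ND 5 fell inside the diabetic range, and the other 6 T1ND libraries had at least 16.2 CPM.

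*Mafa*, an activator of insulin transcription, was not called. Its CPM spread widely in T1ND, from 14.6 (T1ND 5) and 18.1 (T1ND 6) to 174 with a median of 70.3, and T1D libraries had 64.2, 9.6, 47.5 and 23.1. The groups overlapped and the fold was -1.45 ± 0.54 (adjusted p = 0.151). *Pdx1* stood at -0.49 ± 0.23 and *Nkx6-1* at -0.45 ± 0.27 (adjusted p = 0.28 and 0.403), and *Neurod1*, *Foxa2* and *Pax6* at -0.07, -0.23 and -0.52, all of them not called. Without T1ND 5, 4 maturity markers and 3 transcription factors fell and 0 of either list rose. Of 21 progenitor and dedifferentiation genes 0 were called (median -0.10), and without T1ND 5, as a description only, 1 fell, *Npy* (-2.62). Within this list *Aldh1a3*, an enzyme of retinoic acid synthesis often used as a mark of dedifferentiated β cells, had at most 2.17 CPM in any of the 11 libraries.

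Hormone and granule genes did not pass the test. Of 23 such genes 0 were called, with a median fold of 0.02. Without T1ND 5, as a description only, 1 fell, *Pcsk1n*, a granule protein of the secretory pathway (-1.04). *Ins1* had 71100 to 142000 CPM in T1ND and 65900, 91000, 88100 and 160000 CPM in T1D, and its fold was 0.16 ± 0.33 (adjusted p = 0.855). *Ins2* stood at 137000, 335000, 211000 and 443000 CPM in T1D and between 140000 and 414000 CPM in T1ND (fold 0.06 ± 0.36, adjusted p = 0.966). The lowest and the highest of these scaled values were both diabetic, and they depend on the scaling. TMM factors ranged from 0.583 to 1.11 in T1ND and from 0.474 (T1D 3) to 1.042 in T1D. As unscaled shares of counts, *Ins1* and *Ins2* together held 23.7 to 42.5% in T1ND and 14.2 to 34% in T1D. *Iapp*, the amyloid peptide released with insulin, had a fold of 0.64 ± 0.29 (adjusted p = 0.248). The insulin genes are close copies, so the split of reads between them is an estimate. Of 16 islet autoantigens of type 1 diabetes, a list that shares the insulin genes, 0 were called (median 0.04).

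Among the 38 lists, which were chosen with earlier results of these data known, that of glucose sensing and incretin signalling had the most falls. Of 23 genes 4 fell and 0 rose (median -0.52, 19 below 0), and 5 fell without T1ND 5. Over all genes tested 0.795% fell. *Gipr*, the receptor of the gut hormone GIP (chr7:19156063-19170248), had 2.59 to 51.5 CPM in T1ND with a median of 11.1, and 6.37, 4.13, 3.81 and 4.79 CPM in T1D. T1ND 1 set the top of the range, T1ND 6 lay among the diabetic libraries and T1ND 5 below them. The fold was -2.05 ± 0.48 (adjusted p = 0.0196). *Trpm5*, a cation channel that supports insulin release (chr7:143071529-143094642), had 12.5 to 63.6 CPM in T1ND (median 35) and 5.42, 18.7, 6.5 and 14.2 CPM in T1D, a fold of -1.61 ± 0.36 (adjusted p = 0.0147). The overlap came from T1ND 5 and T1ND 7. *Gpr119*, a receptor for lipid messengers, fell by 1.37 ± 0.36 (adjusted p = 0.0349), from a median of 15.1 CPM to 4.43, 8.51, 6.5 and 8.1 CPM. *Pcx*, the mitochondrial enzyme pyruvate carboxylase, fell by 1.32 ± 0.37 at the edge of the threshold (adjusted p = 0.0499). With the macrophage term *Gipr* and *Trpm5* had folds of -1.56 and -1.12 and were not called (adjusted p = 0.146 and 0.144).

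The receptor and transporter best known in this pathway missed the threshold. *Glp1r*, the GLP-1 receptor, stood at -1.98 ± 0.72 (adjusted p = 0.139), with 18.3 to 180 CPM in T1ND and 26.2, 11.3, 36.7 and 12.1 CPM in T1D. *Slc2a2*, the glucose transporter GLUT2, had 130 to 429 CPM in T1ND with a median of 266, and 95.8, 99.8, 131 and 160 CPM in T1D. Only T1ND 5 (130 CPM) lay within the T1D range, and T1ND 6 stood just above it at 163 CPM. The fold of *Slc2a2* was -1.09 ± 0.32 (adjusted p = 0.0684) and, as a description only, -1.20 without T1ND 5. The subunits of the ATP-sensitive potassium channel, *Kcnj11* and *Abcc8*, stood at -0.78 ± 0.30 and -0.35 ± 0.28 and were not called.

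The ChREBP pathway split. Of 16 ChREBP and glucose response genes 2 rose and 1 fell (median -0.06), while 0.485% of all genes tested rose and 0.795% fell. *Txnip*, an inhibitor of thioredoxin, rose by 1.77 ± 0.41 (adjusted p = 0.018) and its relative *Arrdc4* by 1.53 ± 0.38 (adjusted p = 0.0252), while *Mlxipl* itself fell by 1.87 ± 0.46 (adjusted p = 0.0276). Promoter stretches of both risen genes are shown, that of *Txnip* with a pair of E-box-like motifs and that of *Arrdc4* with a single E-box. They are RefSeq sequences on GRCm38.p6, given 5′ to 3′ on the gene's strand, and stop before the start. That of *Txnip* lies on the plus strand at chr3:96557812-96557918 and that of *Arrdc4* on the minus strand at chr7:68749366-68749461. Capitals mark a pair of E-box-like motifs (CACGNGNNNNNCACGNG, positions -85 to -69 from the gene's start) in *Txnip* and a single E-box (CACGTG, positions -193 to -188) in *Arrdc4*.
Txnip: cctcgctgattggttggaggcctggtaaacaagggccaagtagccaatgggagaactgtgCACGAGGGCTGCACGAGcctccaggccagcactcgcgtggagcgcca
Arrdc4: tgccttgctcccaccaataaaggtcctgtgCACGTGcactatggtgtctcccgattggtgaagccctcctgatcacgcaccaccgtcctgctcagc
Searched on both strands from 250 bases before to 50 after the start, the pair was found for 15 of 27025 genes (0.0555%). It was found for 1 of the 58 risen genes with a promoter sequence, which is *Txnip* itself, and for 0 of 100 fallen ones. The single E-box was found for 8.09% of all genes, 12.1% of risen and 14% of fallen genes. A match describes these letters only and is no measurement of binding.

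*Txnip* had 38.1 to 89.7 CPM in 6 T1ND libraries, 313 CPM in T1ND 5, and 581, 291 and 341 CPM in T1D 1, 2 and 4, with T1D 3 slightly below T1D 2. T1ND 5 lay within the diabetic range, T1D 1 (above 600 mg/dl) was the highest, and ICR adults had 50.5 to 250 CPM. *Arrdc4* had 7.58 to 21.9 CPM in the same 6 libraries, 59.9 CPM in T1ND 5 and 85.8, 48.5, 38.4 and 57.1 CPM in T1D, again with T1ND 5 among the diabetic values. *Mlxipl* had 92.8, 46.1, 30.3, 22, 7.79, 7.14 and 11.8 CPM in T1ND 1 to 7 and 16.6, 8.89, 6.3 and 10.3 CPM in T1D. Here 3 T1ND libraries lay within the diabetic range, and the fold with the macrophage term was -1.29, which was not called. With the same term *Txnip* stood at 1.58 and *Arrdc4* at 1.3, which were not called either (adjusted p = 0.0877 and 0.102). The lipid genes of the list, *Acly*, *Fasn* and *Scd2*, stood at -0.74 ± 0.41, -0.16 ± 0.24 and -1.0 ± 0.28 and were not called.

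**Figure D3:**
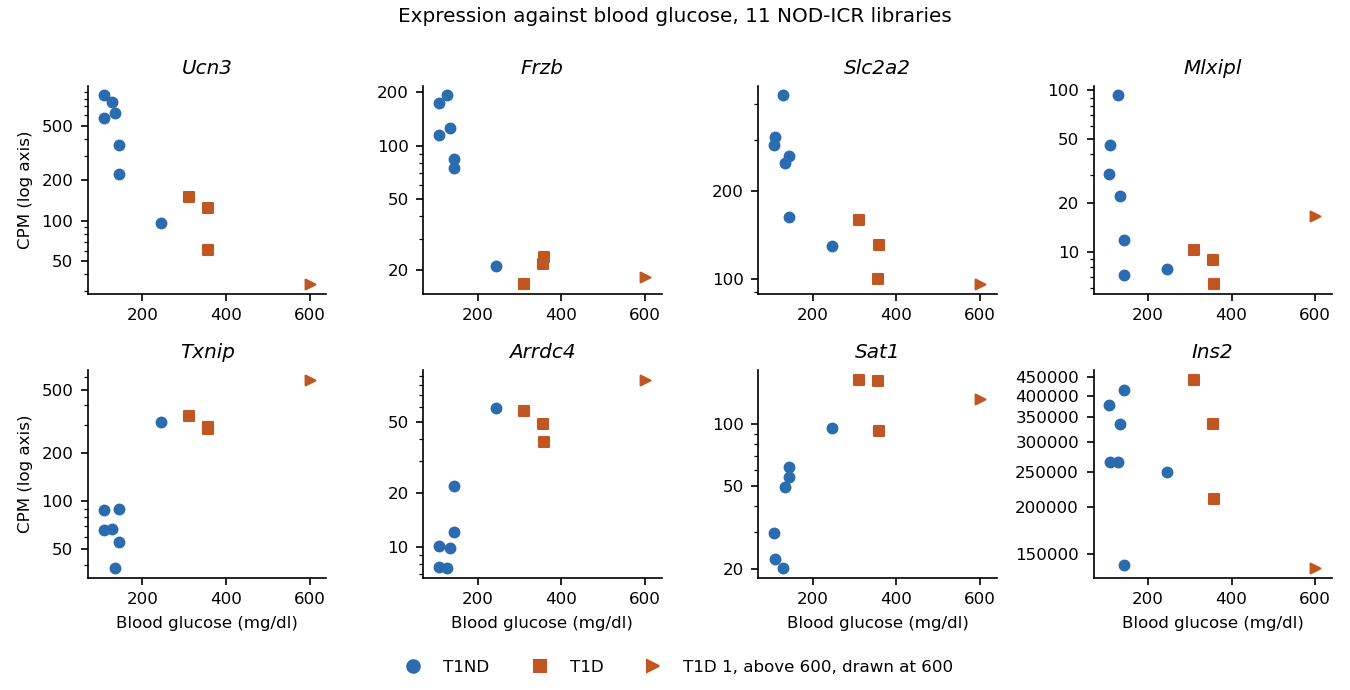
CPM (log axis) of 8 genes against the blood glucose of the mouse in mg/dl, with 1 point per library of T1ND (circles) and T1D (squares, and T1D 1 as a triangle at the limit of 600). For *Ucn3*, *Frzb*, *Txnip* and *Arrdc4* the T1ND library at 245 mg/dl lies at the level of the diabetic libraries, while *Ins2* spans the same range in both groups.

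*Jph3* and *Cabp7* were the most often called of the remaining large falls, in 25 and 24 of 32 alternative settings. *Jph3*, a junctophilin that ties the endoplasmic reticulum to the cell membrane (chr8:121730559-121791083), had 3.96 (T1ND 5) to 18.4 CPM in T1ND with a median of 12.6, and 2.76, 3.2, 2.78 and 3.27 CPM in T1D. The groups did not overlap, and the fold was -1.99 ± 0.38 (adjusted p = 0.00608). *Cabp7*, a calcium-binding protein, had 55.5 to 95.1 CPM in 6 T1ND libraries, 15.7 CPM in T1ND 5, and 18.6, 17.3, 29.1 and 14 CPM in T1D (fold -1.76 ± 0.36, adjusted p = 0.00969). *Vstm2l*, *Lingo1*, *Mpp3* (a membrane scaffold) and *Carmil3* (a regulator of actin capping) fell by 1.84, 1.86, 1.87 and 1.78, with standard errors of 0.40 to 0.47 and adjusted p from 0.0118 to 0.0382. In each of these 4 genes T1ND 5 had a value inside the T1D range.

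Among the largest rises, *Fabp5*, a fatty acid binding protein also made by macrophages, led with 1.84 ± 0.44 (adjusted p = 0.020). It had 5.63, 7.39, 9.68, 63.9, 39.6, 31.5 and 59.8 CPM in T1ND 1 to 7 and 220, 46.3, 59.5 and 124 CPM in T1D, against 3.81 to 12.5 CPM in ICR adults. T1ND 1 to 3 were at the level of ICR adults, and the other 4 lay near or among the diabetic values. The macrophage share was low in the same 3 libraries, at 0.0148 to 0.0475% against 0.179 to 0.243% in T1ND 4 to 7, and with the macrophage term *Fabp5* stood at 1.48 (adjusted p = 0.0758). *Ifi30*, a lysosomal thiol reductase of antigen processing, rose by 1.32 ± 0.25 (adjusted p = 0.00608), from 13.4 to 38.3 CPM in T1ND to 72.7, 46.1, 35.7 and 66.6 CPM in T1D. T1D 3 lay below the 2 highest T1ND libraries. It remained called with the macrophage term (1.12, adjusted p = 0.040).

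*Sat1*, the enzyme that starts polyamine breakdown, rose by 1.59 ± 0.30 (adjusted p = 0.00608). T1ND libraries had 20.1 to 96 CPM with a median of 49.6, and T1D libraries 132, 162, 92.9 and 164 CPM. T1ND 5 was the highest of its group and the only one above a diabetic value. *Sat1* stayed called with the macrophage term (1.19, adjusted p = 0.0127) but not with the length term (1.24, adjusted p = 0.0917). *Gsto2*, a glutathione transferase, rose by 1.66 ± 0.42, and *Tnfrsf12a*, the receptor of the cytokine TWEAK, by 1.26 ± 0.31 (adjusted p = 0.0307 and 0.0234). *Tnfrsf12a* had 11.1 to 27.6 CPM in 6 T1ND libraries, 68.8 CPM in T1ND 5 and 65.6, 56.2, 63.9 and 65.8 CPM in T1D, so that T1ND 5 topped both groups.

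*Cdkn1a*, *Rps27l* and *Rbm3* completed the 10 largest rises. *Cdkn1a*, the cell cycle inhibitor p21, rose by 1.10 ± 0.30 (adjusted p = 0.0475), from 46.5 to 376 CPM in T1ND (median 177) to 343, 377, 310 and 406 CPM in T1D. It was called in 8 of 32 alternative settings. *Rps27l*, a ribosomal protein paralogue induced by p53, rose by 1.17 ± 0.27 (adjusted p = 0.0176), with 68.7 to 169 CPM in T1ND and 151, 204.3, 177 and 341 CPM in T1D. *Rbm3*, a cold-shock RNA-binding protein, rose by 1.21 ± 0.28 (adjusted p = 0.0184), with T1D 2 and T1D 4 at 121 and 188 CPM above all T1ND libraries. T1D 1 and T1D 3 had 47 and 45 CPM, within the T1ND range of 20.3 to 74.7. Of 23 apoptosis and p53 target genes *Cdkn1a* was the only one called (median 0.44), while 0.485% of all genes tested rose. The proapoptotic *Bax* stood at 0.58 ± 0.23 and *Mdm2*, a p53 target, at 0.11 ± 0.20.

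**Figure D4:**
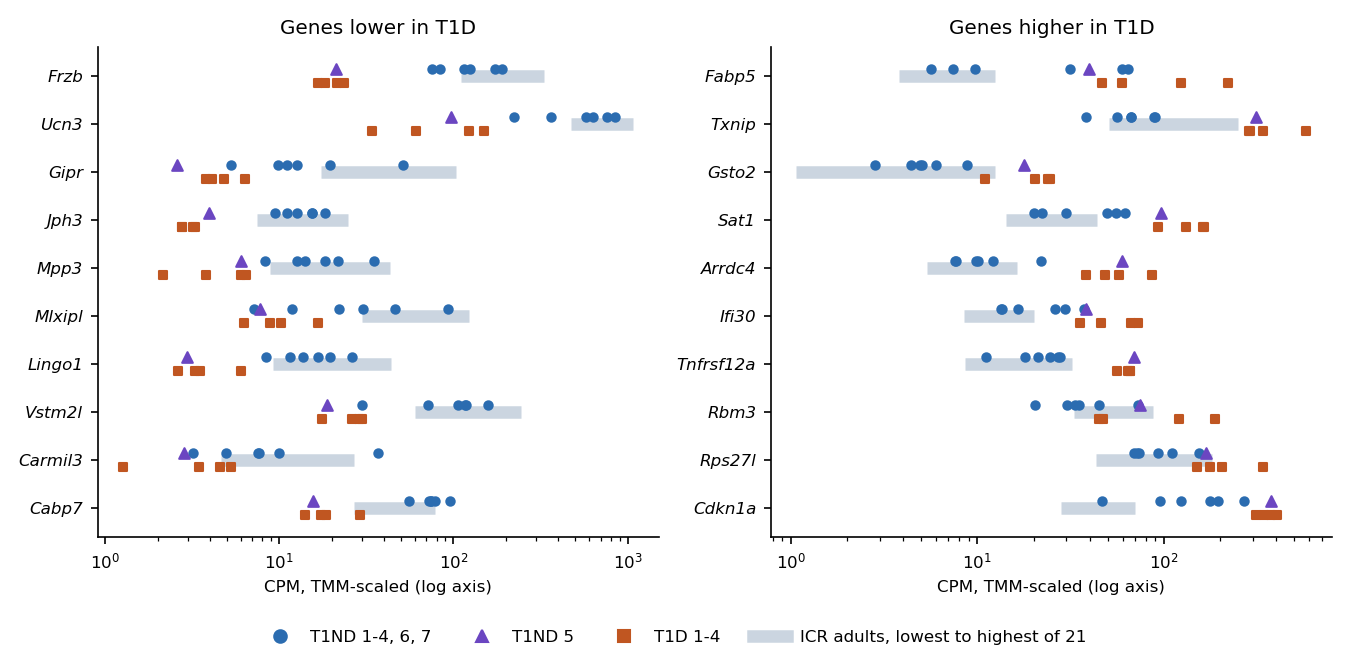
CPM (log axis) of the 10 largest falls and 10 largest rises, with 1 point per library of T1ND (circles, T1ND 5 as a triangle) and T1D (squares) and grey bars from the lowest to the highest of 21 ICR adult libraries. In most of the 20 genes T1ND 5 lies among the T1D libraries, as for *Frzb* at 21.1 CPM.

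Few genes of the respiratory chain and antioxidant lists passed the test. Of 44 listed nuclear-encoded respiratory chain genes 2 rose and 0 fell, with 42 folds above 0 and a median of 0.36. Over all genes tested 0.485% rose, and 49% had folds above 0. *Cox5a*, a subunit of cytochrome c oxidase, rose by 0.73 ± 0.17 (adjusted p = 0.018), with 51.3 to 108 CPM in T1ND and 82, 126, 105 and 144 CPM in T1D. *Uqcrfs1*, the Rieske iron-sulphur protein of complex III, rose by 0.68 ± 0.18 (adjusted p = 0.0349). The exceptions below 0 in the list were *Sdha* (-0.35 ± 0.18) and *Ndufs1* (-0.08 ± 0.18), which were not called. *Ndufs4*, a complex I subunit that the list does not hold, also rose (0.69 ± 0.17, adjusted p = 0.0217). Of 22 antioxidant genes 1 rose, *Txn1*, the thioredoxin bound by Txnip protein (0.92 ± 0.23, adjusted p = 0.0257), and the median was 0.30.

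The following families were picked by symbol after the fold changes were known, so their counts are a description. Of the 14 subunits of the 20S proteasome core (Psma and Psmb genes) 7 rose, all 14 folds were between 0.42 and 0.72, and the median was 0.56. Over all genes tested 0.485% rose. For *Psma5* the fold was 0.72 ± 0.19 and for *Psma3* 0.56 ± 0.13. Of 20 subunits of the 19S cap 1 rose (median 0.30), and of 78 mitochondrial ribosomal proteins 6 rose (75 folds above 0, median 0.31). Of 76 cytosolic ribosomal proteins and their paralogues 2 rose (75 above 0, median 0.53), *Rpl29* and the paralogue *Rps27l* named above. Transcripts of these families are short, and the slope on length moved with the groups. With the length term 0 of the 4 families' members were called, the 20S median was 0.26 with all 14 above 0, and the medians of mitochondrial and cytosolic ribosomal proteins were -0.05 and 0.11. The 20S count was also 0 with the macrophage term, without T1D 2 and without T1D 4, and 12 without T1ND 5.

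Glycolysis and hypoxia genes moved in single members. Of 20 glycolysis genes 2 fell and 0 rose (median 0.17), while 0.795% of all genes tested fell. *Eno2*, the neuronal enolase, fell by 1.16 ± 0.28 (adjusted p = 0.0223), from 26.8 to 97.6 CPM in T1ND (median 59.3) to 40.5, 24.2, 29.2 and 19.9 CPM in T1D. T1ND 5 and T1ND 6 lay at 26.8 and 28.1 CPM, inside the diabetic range. *Pfkm*, a phosphofructokinase, fell by 0.64 ± 0.17 (adjusted p = 0.0474). *Vegfa*, the growth factor that keeps islets vascularised, was the only called gene of 18 hypoxia genes (fold -0.87 ± 0.22, adjusted p = 0.0266), and of 22 cholesterol synthesis genes 0 were called (median -0.09). Without T1ND 5 1 glycolysis gene rose and 3 fell, and 1 cholesterol gene fell.

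Interferon and antigen presentation genes did not pass the test between diabetic and non-diabetic mice. Of 42 interferon response genes 0 were called, with 37 folds above 0 and a median of 0.57. Of 18 genes of MHC class I presentation and 11 of class II presentation 0 were called, all 29 folds were above 0, and the medians were 0.57 and 1.22. *Cxcl10*, a chemokine that draws T cells, had 0.686 to 438 CPM in T1ND with a median of 221, and 430, 273, 352 and 368 CPM in T1D (fold 0.79 ± 0.75, adjusted p = 0.627). Without T1ND 1 the lowest T1ND value is 130 CPM, and the ranges overlap in either case. *Cd274*, which codes for the checkpoint ligand PD-L1, had 224 CPM in T1ND 7, 6.59 CPM in T1ND 1 and 54.8 to 122 CPM in T1D (fold 0.07 ± 0.46).

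Examples from these lists were set beside ICR adults, where most T1ND libraries were higher and T1ND 1 was not. *Cxcl10* reached at most 4.99 CPM in 21 ICR adults and *Cd274* 15.2 CPM, so that 6 of 7 T1ND and all 4 T1D libraries were higher. *H2-K1*, a class I heavy chain, had 34.5 CPM in T1ND 1, 287.2 to 863 CPM in the other T1ND libraries, 721.9 to 1010 CPM in T1D and 131 to 252 CPM in ICR adults. *H2-Aa*, a class II chain of antigen-presenting cells, had 15.7 to 557 CPM in T1ND and 498 to 713 CPM in T1D. H2 genes vary in sequence between strains and have close copies, so their estimated counts are uncertain. *Ifi27* and *Psme2*, the members of smallest p in the interferon and class I lists, stood at 0.97 ± 0.28 and 0.58 ± 0.24 (adjusted p = 0.0589 and 0.192). Without T1ND 5, 2 interferon genes rose and 0 genes of either MHC list.

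Macrophage markers stood above 0 throughout. All 20 macrophage and monocyte genes had folds above 0 (median 1.64) and 0 were called. *Lyz2*, lysozyme of macrophages, had 36, 19.1 and 104 CPM in T1ND 1 to 3, up to 1240 CPM in T1ND 4 to 7 and 2650, 1950, 740 and 1810 CPM in T1D, with ICR adults at 0.982 to 81.2 CPM. T1ND 1 to 3 were near the ICR adult range, and T1D 3 lay below T1ND 4 to 7. The fold was 1.86 ± 0.96 (adjusted p = 0.327). *C1qa*, a complement gene of tissue macrophages, stood at 1.26 ± 0.39 (adjusted p = 0.0855). T cell genes were near 0: *Cd3e* had at most 0.51 CPM and *Cd8a* at most 3.06 CPM in any of the 11 libraries, and of 20 T cell genes 0 were called (median -0.60). *Ms4a1*, a B cell gene, had at most 1.76 CPM, and the B and plasma cell list had 0 called members (median -0.37). The 10 pan-leukocyte markers all had folds above 0 (median 1.39, 0 called).

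**Figure D5:**
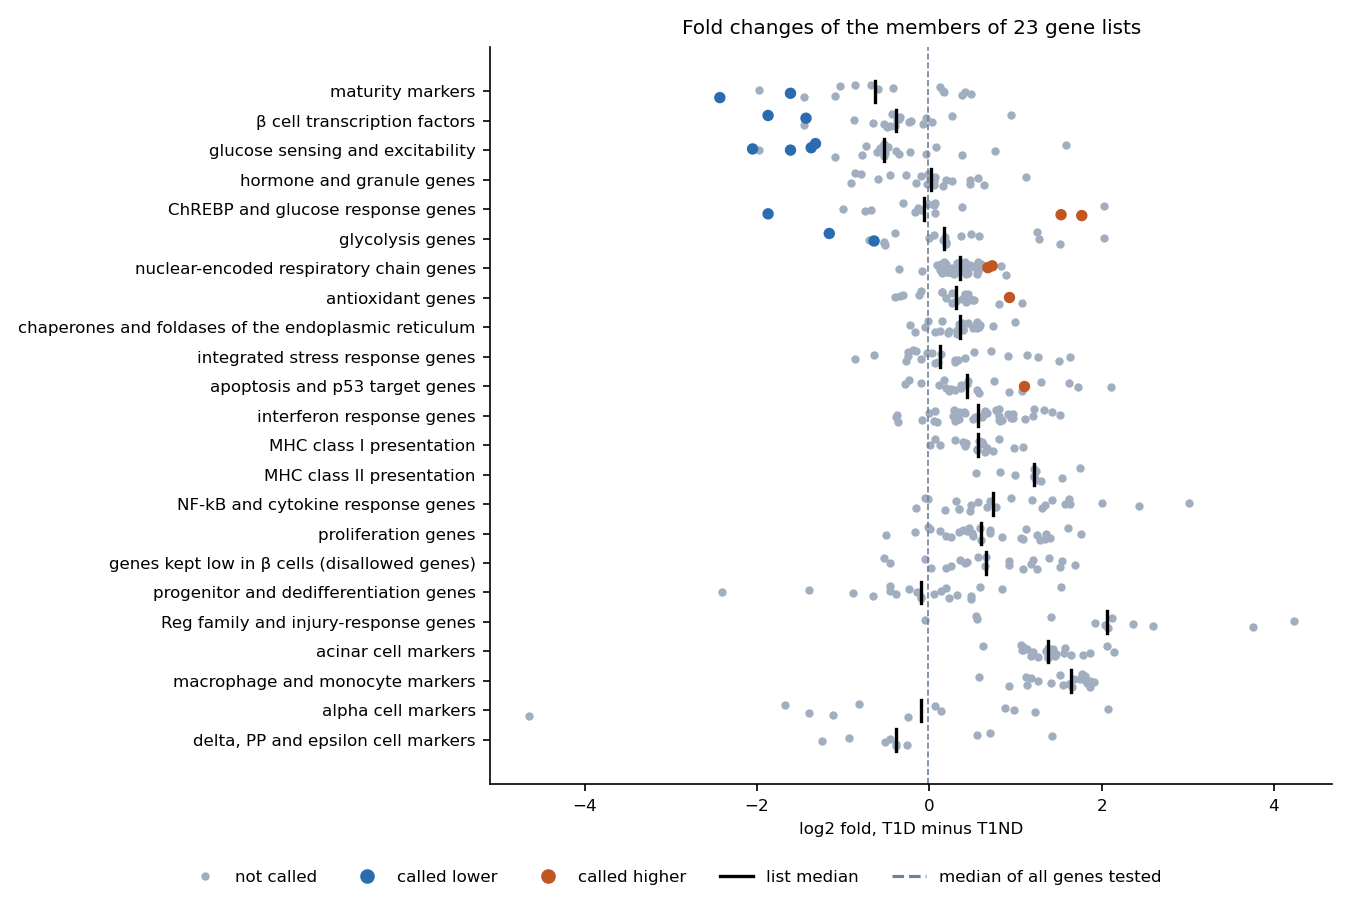
Log2 fold of T1D minus T1ND for each tested member of 23 gene lists (grey points not called, coloured points called), with the list's median as a bar and the median of all 16092 genes as a dashed line. Called falls include members of the maturity, transcription factor, glucose sensing, ChREBP and glycolysis lists, and the macrophage, acinar and MHC lists lie above 0 with 0 called members.

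Exocrine and injury-related genes did not pass the test. All 26 acinar genes had folds above 0 (median 1.38, 0 called), and *Ctrb1*, chymotrypsinogen, ranged from 1830 to 17700 CPM in T1ND and stood at 14400, 7170, 42600 and 30100 CPM in T1D. Of 12 Reg family and injury-response genes 0 were called (median 2.06). *Spp1*, osteopontin, had 116, 365, 857, 785, 2880, 3750 and 2610 CPM in T1ND 1 to 7 and 4460, 5150, 9630 and 4530 CPM in T1D. The groups did not overlap, and T1ND 5 to 7 formed the upper part of T1ND. The fold of *Spp1* was 2.12 ± 0.72 (adjusted p = 0.112), and *Reg2*, a secreted lectin, reached 413 CPM in T1D 3 alone against 4.44 to 52.8 CPM in the other T1D libraries. Of 12 alpha cell and 10 delta, PP and epsilon cell markers 0 were called, with *Gcg* at -0.25 ± 0.82 and *Sst* at -0.38 ± 0.73. The duct, endothelial, stromal, dendritic, neutrophil and mast cell, NK, Schwann and erythroid lists also had 0 called members, with medians from -0.68 (NK) to 0.72 (dendritic). Without T1ND 5 1 alpha cell marker rose and 1 fell, and 2 duct markers rose.

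Stress lists showed no called member. Of 24 chaperones and foldases of the endoplasmic reticulum 0 were called (median 0.36), and of 24 integrated stress response genes 0 (median 0.12). *Hspa5*, the chaperone BiP, had 1540 to 3650 CPM in T1ND and 2650, 3260, 3540 and 2630 CPM in T1D (fold 0.32 ± 0.25), and *Ddit3*, which codes for CHOP, stood at 0.30 ± 0.22. *Hspa5* was highest in T1ND 5. Of 24 NF-kB and cytokine response genes 0 were called (median 0.74), and *Cd40*, a receptor of immune co-stimulation, had 6.14 to 24.4 CPM in T1ND and 36.7, 38, 34.2 and 33.9 CPM in T1D. Its groups did not overlap, and the fold was 1.19 ± 0.34 (adjusted p = 0.0569) and, as a description only, 1.31 without T1ND 5. Of 22 genes that β cells keep low 0 were called (median 0.66), and *Ldha*, lactate dehydrogenase, had 9.09 to 31.2 CPM in T1ND and 34 to 46.8 CPM in T1D (fold 1.25 ± 0.68, adjusted p = 0.362). Of 20 genes that respond to the handling of cells 0 were called (median 0.58). Of 28 proliferation genes 0 were called (median 0.60), with *Mki67* at 1.29 ± 0.58 (adjusted p = 0.253).

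The effect was then set against that in Ob/Ob mice. In the same fit 2937 genes were called between T2D and T2H (18.3%), and 103 of the 206 NOD-ICR calls were among them, 97 in the same direction and 6 in the opposite one. These 6 (*Th*, *Rab3b*, *Filip1*, *Relt*, *Sgpp2* and *Cyb5rl*) fell in T1D and rose in T2D. The difference of the effects was tested directly as (T1D minus T1ND) minus (T2D minus T2H), which called 345 genes (2.14%), 176 higher and 169 lower in the NOD-ICR effect. Of the 206 genes 21 were called there, the 6 above included. Strain and type of diabetes cannot be told apart in this difference. Between T2D and T2H, strain (BTBR/mix and BTBR) and diabetes cannot be told apart either. T2D mice were 58 to 78 days old and T2H mice 53 to 179 days. The Qiagen column was used for 3 of 7 T2D and 1 of 9 T2H libraries, and TRIzol for the others.

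*Frzb* and *Mlxipl* fell in T1D and were not called in T2D, and both differed between the models. *Frzb* had 114 to 221.5 CPM in T2H and 134 to 219 CPM in T2D (fold 0.14 ± 0.26), and the difference of effects was -2.63 ± 0.44 (adjusted p = 0.000122). *Mlxipl* had a fold of 0.25 ± 0.34 in T2D (difference -2.11 ± 0.57, adjusted p = 0.0306). *Trpm5* fell in both models but further in T2D, where it stood at 2.95 to 12.5 CPM against 36.6 to 91.3 CPM in T2H (fold -3.24 ± 0.31, difference 1.62 ± 0.44, adjusted p = 0.0323). *Ucn3*, *Txnip* and *Arrdc4* had T2D folds of -2.03 ± 0.31, 1.54 ± 0.35 and 2.44 ± 0.32, and the difference was not called for them (-0.40 ± 0.47, 0.23 ± 0.56 and -0.91 ± 0.51).

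The named genes were also set beside ICR adults. The folds of T1ND and of T1D against ICR adults share the adult libraries and are given only side by side. *Ucn3* stood at -0.63 ± 0.26 in T1ND (adjusted p = 0.10) and -3.06 ± 0.39 in T1D, *Jph3* at -0.54 and -2.52, and *Cabp7* at 0.35 ± 0.23 and -1.41 ± 0.32. *Gipr*, *Trpm5* and *Frzb* were already below ICR adults in T1ND, at -1.29 ± 0.33, -1.02 ± 0.25 and -0.84 ± 0.24 (adjusted p = 0.00323, 0.00255 and 0.0105). Among the rises, *Txnip* stood at -0.07 ± 0.29 in T1ND and 1.70 ± 0.32 in T1D, whereas *Cdkn1a* stood at 1.91 ± 0.20 and 3.01 ± 0.22 and *Fabp5* at 2.13 ± 0.28 and 3.96 ± 0.32. In these comparisons 2231 genes (13.9%) were called between T1ND and ICR adults and 5399 (33.6%) between T1D and ICR adults.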

How the data were processed

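RNA of sorted mCherry-positive β cells was sequenced, per the labels' protocols from islets isolated on a Histopaque gradient, with RNA taken by TRIzol or a Qiagen column and SMART-Seq v4 and Nextera XT libraries, which keep no strand, so that a gene and its antisense partner cannot be told apart. The deposited expected counts came, per the submitters' processing notes, from bcl2fastq 2.20.0.422, Bowtie 1.2.2 and RSEM 1.3.0 with build mm10. The table held 20306 genes in 63 libraries, and 48.5% of its values were not whole, so expected counts were rounded. The authors' normalized signal values were not used. A current symbol was found by name for 19344 of them and through a synonym for 887.

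Genes were kept with filterByExpr by group and scaled by TMM in edgeR 4.0.16 (R 4.3.3). The quasi-likelihood model (robust glmQLFit and two-sided glmQLFTest) covered all 63 libraries with 9 group means and an extraction term, with Benjamini-Hochberg adjustment over 16092 genes and calls below 0.05. The extraction effect comes from groups with both methods. Counting depth limits genes of few CPM. The 38 lists (680 of 690 genes found) hold β cell, metabolic, stress, death and immune programs and markers of other cell types. Members and lists were chosen with earlier results of these data known. The p-values measure the spread between these libraries.

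Genes named are the 10 largest rises and falls that were called, reached 10 CPM in 1 group and had every T1D library on 1 side of the T1ND median (symbols of predicted genes, mitochondrial, immunoglobulin and sex-linked marker genes left out), up to 3 called members per list or the 1 of smallest p, 25 anchor genes, and 4 genes per direction for the difference of effects. Other list members are named as examples after their values were seen, and some members are not reported here. Alternatives were DESeq2 1.42.0, limma 3.58.1 voom with quality weights, RLE factors, other filters, other terms, subsets of libraries and each of the 11 libraries left out. Tests were run on simulated counts with a single spread for all genes and 200 genes changed in T1D. The simulation held no differences of strain, extraction or single libraries other than depth. It checks the code and cannot check the number of calls in these data.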

Additional observations from a re-analysis of the deposited data

Results flagged for a closer look

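In groups of 4 to 7 libraries, a highest or lowest value was marked where its gap to the next took up more of the group's range than Dixon's limit allows. Of 162 groups tested 11 were marked, and chance alone marks about 1 in 20. T1ND 5 accounted for 4 of them: *Txnip* was high at 313 CPM, and *Frzb* (21.1 CPM), *Cabp7* (15.7 CPM) and *Npy* (14.7 CPM) were low for T1ND, each at the level of the diabetic libraries. T1ND 1 was low in *Cxcl10* (0.686 CPM) and *H2-K1* (34.5 CPM) and high for T1ND in the neutrophil gene *Mmp8* (0.0686 CPM). T1ND 4 was high in *Cd8a* (3.06 CPM) and in *Cd209a* (1.66 CPM), a dendritic cell gene. T1D 2 was high in *Mmp8* (0.373 CPM) and in *Ms4a1* (0.466 CPM). The values of *Mmp8*, *Cd8a*, *Cd209a* and *Ms4a1* are near 0.

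Genes whose NOD-ICR effect differed from the Ob/Ob effect were marked by the test of the difference itself (edgeR). Of the named genes, the difference was 1.42 for *Rbm3*, -2.63 for *Frzb*, -2.11 for *Mlxipl* and 1.62 for *Trpm5*. The cell cycle genes *Cenpa*, *Ube2c*, *Top2a* and *Mki67* were each called lower in T2D than in T2H and not called in T1D. Their differences were 4.85 for *Cenpa*, 4.77 for *Ube2c*, 4.46 for *Top2a* and 3.94 for *Mki67*. *Mki67* had 2.99 to 19.4 CPM in T2H and 0.174 to 2.92 CPM in T2D. Further differences, 5.82 for *Crhr1* (a receptor of corticotropin-releasing hormone) and 4.42 for *Syt10* (a synaptotagmin), and the largest negative ones among genes of at least 10 CPM, -8.06 for *Cck* (cholecystokinin), -5.93 for *Sorcs2*, -5.51 for *Slc5a10* and -5.17 for *Dlk1*, belong to genes of which 0 were called between T1D and T1ND.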

How the results depend on the processing

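No paired analysis was possible because replicate numbers only name the libraries. Against 206 calls (78 higher, 128 lower), DESeq2 gave 560 (244 and 316), voom 1821 (1205 and 616), no extraction term 79 (15 and 64), females only 86 (23 and 63), the length term 5 (1 and 4) and the macrophage term 14 (5 and 9). Qiagen libraries only, a test against 2-fold, the 11 NOD-ICR libraries with or without an extraction term or by voom, and the 4 libraries with S numbers 37 to 40 gave 0. In the 4 libraries 355 genes, and in the 2-fold test 330, had an unadjusted p below 0.05. The 11 NOD-ICR libraries with an extraction term had 2003 such genes, and with voom 3331. Leaving out 1 library gave 24 to 684 calls (5 to 300 higher, 19 to 384 lower), and each other library moved the count by over 1.5 times except T1ND 4 (162): T1ND 2 65, T1ND 3 103, T1ND 7 133, T1D 1 71, T1D 2 35 and T1D 3 102. The share of higher calls was 66.2% with voom and 48.5% with RLE factors (111 of 229). The remaining alternatives gave 168 to 288 calls. Without T1ND 5, the NOD-ICR libraries alone gave 178 calls, of which 76 are among the 206. The 345 calls of the difference of effects became 564 with DESeq2, 710 with voom, 24 with Qiagen, 65 with females, 63 against 2-fold, and 200 to 349 with 1 library left out. The 206 genes kept their sign in every alternative that tested them. Of 2763 values of single genes recomputed, 428 lost a call, 73 gained one and 31 of 9 uncalled genes changed sign. These were *Lum* (-0.66 with voom, -0.88 with Qiagen, -0.91 and -0.30 in the 11 libraries with an extraction term and by voom, -5.16 in S numbers 37 to 40, -1 with the macrophage term and -0.82 to 2.03 with 1 library left out), *Mmp8* (-2.01 to 3.69 with 1 library left out), *Ptpn6* (-0.18), *Aldh1a3* (-0.56) and *Ddit3* (-0.23) in S numbers 37 to 40, *Aldh1a3* with the macrophage term (-0.18), *Ddit3* (-0.04) and *Ins1* (-0.22) and *Ins2* (-0.58) with the length term, *Ins1* (-0.03), *Ins2* (-0.19) and *Gcg* (0.19) in females, *Ins2* without an extraction term (-0.05), in the 11 libraries (-0.06) and without T1ND 5 there (-0.09), and *Cd274* with Qiagen (-0.05), in the 11 libraries with an extraction term (-0.04) and with the macrophage term (-0.07). With 1 library left out *Ins1* ranged from -0.09 to 0.27, *Ins2* from -0.18 to 0.18 and *Cd274* from -0.14 to 0.69. The causes were not tested.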

Other observations

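Genes with no overlap between the groups were looked at after their values were seen. *Gpd2*, the mitochondrial glycerol phosphate dehydrogenase that carries electrons from glycolysis to the respiratory chain, had 53.9 to 123 CPM in T1ND and 33.6, 47.6, 43.3 and 40.8 CPM in T1D (fold -0.95 ± 0.21, adjusted p = 0.0133, edgeR). *Aldoc*, an aldolase, stood at 9.3 to 23.1 and 3.11 to 7.33 CPM, and *Idh2*, a mitochondrial isocitrate dehydrogenase, at 104 to 201 and 86.6 to 98.5 CPM (folds -1.35 ± 0.30 and -0.61 ± 0.15). *Htra2*, a mitochondrial protease, was higher in T1D, at 23.8 to 33.2 CPM against 10.7 to 22.5 CPM. *Bace1*, which cleaves membrane proteins in β cells and neurons, was lower, at 16.9 to 23.9 CPM against 26.3 to 41.1 CPM. T1ND 5 was the T1ND library nearest to the diabetic ones for *Gpd2*, *Idh2* and *Htra2*.

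The following genes were also picked after their values were seen. *Maob*, a monoamine oxidase, fell by 1.24 ± 0.33 and *Abat*, which breaks down GABA, by 1.48 ± 0.32 (adjusted p = 0.0388 and 0.0133). *Th*, which makes dopamine, fell by 1.31 ± 0.36 (adjusted p = 0.0487), with 7 to 22.5 CPM in T1ND and 3.01, 8.58, 3.13 and 6.66 CPM in T1D. *Gad1*, which makes GABA, was not called (-1.44, adjusted p = 0.145). *Npy*, a neuropeptide of immature β cells and sympathetic nerves, had 211 to 480 CPM in 4 T1ND libraries, 240, 117 and 14.7 CPM in T1ND 6, 7 and 5, and 16.1 to 72.7 CPM in T1D (fold -2.41 ± 0.73, adjusted p = 0.0793).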
